A study of Homo sapiens with 4 samples.

Results

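Transcript levels of 35 genes of mitosis and the G2/M transition were followed across 4 RNA-seq libraries of MCF10A cells, an established and non-tumorigenic human mammary epithelial line. The genes were listed by symbol for their known function, not by a threshold on these values, but with earlier results of these data known. All 35 were found among the 25317 gene symbols of the deposited tables. Cells had been infected with a pHIV-ZsGreen lentivirus that carried no insert (empty vector, EV), Zeb1, Snail or Ovol2, and fluorescent cells were sorted 6 days later. Zeb1 and Snail are transcription factors of the epithelial-to-mesenchymal transition, and Ovol2 is a transcription factor of the reverse transition. All 4 groups grew in DMEM/F12 with horse serum, epidermal growth factor, cholera toxin and insulin. Each group held 1 library, so there is no spread between replicates, no test of any difference below, and no value here says how much separate cultures vary. In bulk RNA, fewer cells in G2 and mitosis and less of a transcript per such cell cannot be told apart.

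Cells that prepare to divide switch on a common set of genes late in the cycle. Cyclin A and cyclin B activate the kinase CDK1, which condenses chromosomes and starts the assembly of the spindle. Kinetochores attach chromosomes to microtubules, checkpoint kinases hold back the anaphase-promoting complex (APC/C) until all are attached, and motor and scaffold proteins then part the daughter cells. Many of these genes are repressed in resting cells by the DREAM complex and activated in G2 by MYBL2 with the MuvB core and by FOXM1. These factors act through a promoter element called the cell cycle genes homology region (CHR), and nearby CCAAT boxes bind the factor NF-Y.

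Values are FPKM, a count of fragments divided by the length of the transcript and the size of the library. Spacing of the smallest values gave a depth of about 29100000 fragments with EV, 34300000 with Zeb1, 31600000 with Snail and 24100000 with Ovol2, an order kept wherever 4 values follow each other. As a check of the labels, ZEB1 stood at 0.260, 17.3, 0.536 and 0.0380 FPKM, SNAI1 (Snail) at 0.152, 0.436, 99.7 and 0.725 FPKM, and OVOL2 at 6.32, 0.563, 5.26 and 78.3 FPKM, each highest where it had been delivered (whether the delivered sequences were human is not given). All 8 basal epithelial markers examined reached 1 FPKM in every library except EPCAM in the Snail library (0.683 FPKM), and the cell cycle inhibitors CDKN2A and CDKN2B, known to be deleted in this line, were listed at 0 in all 4. Of 8 immune markers, CD14 and CD68 alone reached 1 FPKM in any library, and their list summed to 3.26, 21.9, 3.19 and 7.84 FPKM (CD14 alone 1.46, 17.0, 0.828 and 2.49 FPKM). The pan-leukocyte marker PTPRC was at most 0.0177 FPKM, and of 6 endothelial markers only VWF in the Ovol2 library (1.29 FPKM) reached 1. The part of these transcripts in the results was not tested. RMRP and RPPH1, small RNAs of RNases MRP and P, held 24.6%, 22.1%, 18.7% and 40.6% of all FPKM, and the medians of the 35 genes are given below with and without centring on all genes.

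The promoters are shown first, because a shared element is what ties many of these genes together. RefSeq promoter windows (GRCh38.p14, 250 bases before to 50 bases after the start) matched 30 of the 35 genes by symbol, with TTK, AURKA, TPX2, BIRC5 and UBE2C missing. The CHR letters TTTGAA or TTCGAA, on either strand, were found in 24 of 30 windows (80%), against 16.6% of all 27305 promoters in the table. CCAAT, on either strand, was also found in 24 of 30 (80%), against 35.7% of all promoters, and 15 of 30 (50%) held it more than once, against 11.3%. CHR letters and CCAAT stood together in 20 of 30 (66.7%), against 6.58%. The E-box letters CACCTG, which ZEB and SNAIL proteins bind, were found in 6 of 30 windows (20%), close to the share among all promoters (20.6%), in BUB1B, CCNB1, DLGAP5, ECT2, KIF23 and NUF2. The letters CCGTTA of the OVOL core were found in 3 of 30 (10%), against 3.15% of all promoters, in HMMR, BUB1B and CCNB2. Each motif was searched alone, overlaps between motifs were allowed, and a match describes letters, not binding.

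Of the 16 genes with CHR letters and CCAAT in the 250 bases before the start, those with the 3 largest and 3 smallest differences from EV (log2 ratio in size) with Ovol2 and with Zeb1 are printed, 8 in all. Each stretch runs 5′ to 3′ in the direction of transcription and ends before the start. Capitals mark TTTGAA or TTCAAA (CHR letters on the printed or the other strand) and CCAAT or ATTGG (the CCAAT box likewise).
TOP2A promoter, chr17:40417930-40418146, minus strand: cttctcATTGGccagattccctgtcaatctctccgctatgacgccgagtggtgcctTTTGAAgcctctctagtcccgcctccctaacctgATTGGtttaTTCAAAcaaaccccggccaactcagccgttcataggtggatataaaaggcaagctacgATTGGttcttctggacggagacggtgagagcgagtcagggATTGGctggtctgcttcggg
ASPM promoter, chr1:197146675-197146818, minus strand: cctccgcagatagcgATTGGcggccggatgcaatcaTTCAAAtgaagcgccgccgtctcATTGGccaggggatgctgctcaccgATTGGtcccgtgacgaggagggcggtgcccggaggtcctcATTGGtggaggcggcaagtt
KIF23 promoter, chr15:69414270-69414314, plus strand: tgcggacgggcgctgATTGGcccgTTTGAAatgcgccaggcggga
CDC20 promoter, chr1:43358788-43358945, plus strand: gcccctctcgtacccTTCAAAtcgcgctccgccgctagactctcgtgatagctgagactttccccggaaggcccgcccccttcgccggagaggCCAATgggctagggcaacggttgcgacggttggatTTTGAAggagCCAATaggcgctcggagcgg
CDK1 promoter, chr10:60778155-60778200, plus strand: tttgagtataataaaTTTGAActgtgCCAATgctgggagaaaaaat
CCNB2 promoter, chr15:59104896-59105137, plus strand: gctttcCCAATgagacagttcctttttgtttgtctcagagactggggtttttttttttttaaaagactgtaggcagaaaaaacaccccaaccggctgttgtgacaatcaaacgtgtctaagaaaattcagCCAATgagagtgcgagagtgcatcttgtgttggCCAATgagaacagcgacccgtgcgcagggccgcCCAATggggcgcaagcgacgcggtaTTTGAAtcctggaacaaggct
PLK1 promoter, chr16:23678801-23678880, plus strand: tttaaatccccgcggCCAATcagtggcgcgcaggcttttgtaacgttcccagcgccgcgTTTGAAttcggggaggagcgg
ECT2 promoter, chr3:172750596-172750687, plus strand: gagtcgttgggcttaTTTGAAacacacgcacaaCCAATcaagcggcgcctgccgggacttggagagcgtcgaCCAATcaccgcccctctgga

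Among these 16 genes, TOP2A and ASPM, with 4 inverted CCAAT boxes each, had some of the largest differences from EV with Ovol2 and some of the smallest with Zeb1. CDC20 and CCNB2 were the reverse, although CCNB2 also holds 4 CCAAT boxes. In CCNB2 and PLK1 the CHR letters lay 29 to 24 bases before the start, and in KIF23 55 to 50 bases before it. All 16 were chosen for holding these letters, so their presence at both ends of each comparison follows from that choice.

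Before any ratio, the levels themselves show the order of the libraries. The 35 genes summed to 532 FPKM with EV, 303 with Zeb1, 589 with Snail and 212 with Ovol2, and their median levels were 11.8, 6.57, 12.9 and 4.21 FPKM. As a share of all FPKM without RMRP and RPPH1 this was 0.189%, 0.134%, 0.202% and 0.0641%. All 35 genes were lower with Zeb1 than with EV, where 55.9% of all genes kept for that comparison were lower. All 35 were also lower with Ovol2, where 71.9% of all kept genes were, although CCNB1 and BIRC5 lay above the median of all genes. The Snail library was above EV for 28 genes (67.6% of all kept genes) and below it for 7 (32.4%), but 19 lay below the median of all genes. The commonest order, from highest to lowest, was Snail, empty vector, Zeb1, Ovol2, seen in 23 genes. The Ovol2 library was lowest of all for 26 genes and the Zeb1 library for the other 9. The fewest estimated fragments were those of AURKB with EV (337), Zeb1 (156) and Snail (321) and of KIF4A with Ovol2 (104), and counting error is only part of the error.

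**Figure D1:**
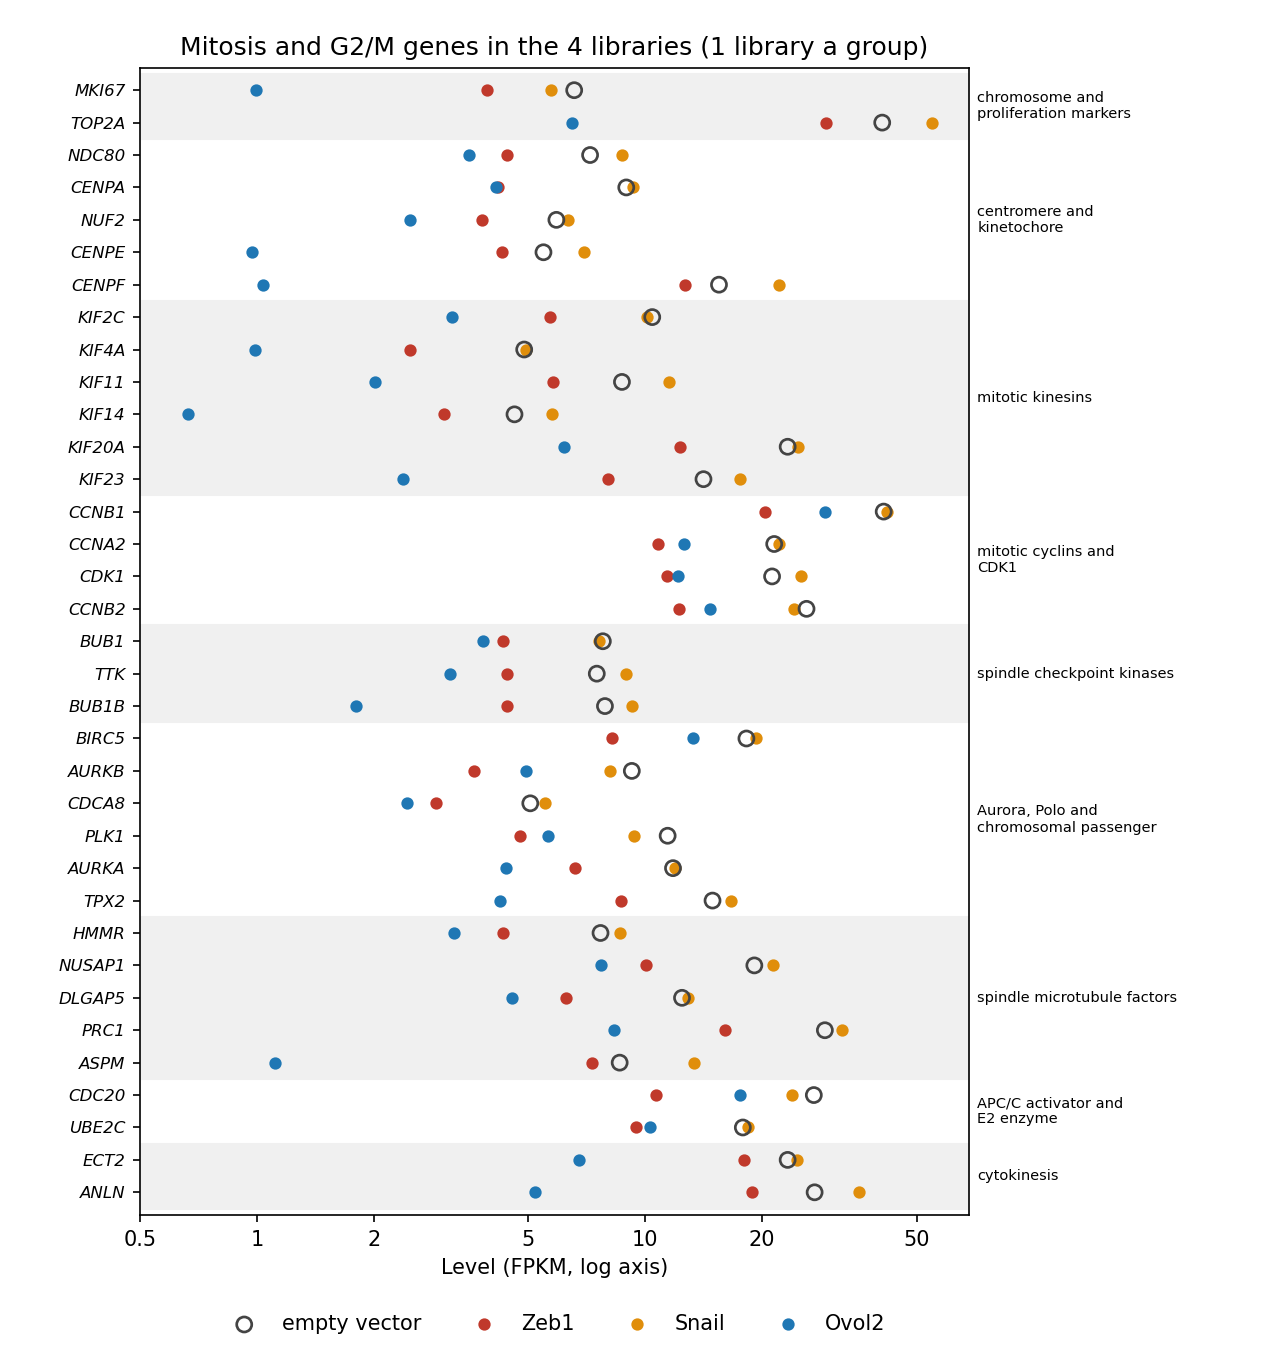
Level of each of the 35 genes in FPKM (log axis) with EV (open circles), Zeb1, Snail and Ovol2, 1 library a group, with genes grouped by role. Snail points lie close to the empty vector, Zeb1 points lie to their left, and Ovol2 points range from just left of the empty vector (BIRC5, 13.2 against 18.2 FPKM) to far left (CENPF, 1.04 against 15.5 FPKM).

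In what follows a log2 ratio is log2 of (FPKM + 1) in a factor library over (FPKM + 1) in the empty vector library, which understates differences of low genes. A gene was kept for a comparison if it reached 1 FPKM in at least 1 of its libraries, and it was called lower or higher at a ratio of 2-fold or more on that scale. All 35 genes were kept in every comparison and the lowest EV level was 4.60 FPKM (KIF14), so none passed only through 1 factor library.

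Among the chromosome markers, MKI67, which encodes the surface protein of mitotic chromosomes used to score proliferation, was at 6.56 FPKM with EV, 3.91 with Zeb1, 5.71 with Snail and 0.993 with Ovol2. TOP2A, the topoisomerase that untangles sister chromatids, was at 40.7 FPKM with EV, 29.3 with Zeb1, 54.7 with Snail and 6.46 with Ovol2. The Ovol2 library stood alone at the low end for these genes, with log2 ratios of -1.92 and -2.49, while the Zeb1 library gave -0.62 and -0.46. Against kept genes of like length, a scale described below, the MKI67 ratios were -0.84 with Ovol2 and -0.85 with Zeb1. Those of TOP2A were -1.54 and -0.59. The Snail library was above the empty vector for TOP2A (0.42) and below it for MKI67 (-0.17).

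Of the 5 kinetochore genes, CENPE and CENPF were called lower with Ovol2. CENPF, a large microtubule-binding protein of the outer kinetochore, was at 15.5 FPKM with EV, 12.6 with Zeb1, 22.2 with Snail and 1.04 with Ovol2, which made its Ovol2 ratio (-3.02) the lowest of the 35. CENPE, the motor that moves chromosomes to the spindle equator, was at 5.46 FPKM with EV, 4.28 with Zeb1, 6.95 with Snail and 0.969 with Ovol2. For these large proteins the Zeb1 library was close to the empty vector, with log2 ratios of -0.27 and -0.29, and only the Ovol2 library was far below the rest. Against genes of like length the CENPF ratios were -1.93 with Ovol2 and -0.50 with Zeb1. Those of CENPE lay closer together, at -0.63 and -0.52. CENPA, the histone variant that marks centromeres, was instead about equally low in the Zeb1 and Ovol2 libraries by FPKM, at 8.93 FPKM with EV, 4.17 with Zeb1, 9.30 with Snail and 4.11 with Ovol2. Its ratios against genes of like length were -1.11 with Ovol2 and -0.62 with Zeb1. NDC80 and NUF2, partners in the complex that grips microtubules, were at 7.20, 4.40, 8.68 and 3.51 FPKM and at 5.90, 3.80, 6.32 and 2.48 FPKM. Their Ovol2 log2 ratios of -0.86 and -0.99 stayed short of 2-fold on the scale with 1 FPKM added. By FPKM alone NDC80 was 2.05-fold, NUF2 2.38-fold and CENPA 2.17-fold lower with Ovol2 than with EV.

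All 6 mitotic kinesins were called lower in the Ovol2 library and none in the Zeb1 library, where 25.1% and 8.49% of all kept genes were. After centring 5 of the 6 were lower by 2-fold with Ovol2, and against genes of like length 3 were. On the length scale their medians were -0.94 with Ovol2 and -0.69 with Zeb1. KIF23, the motor of the centralspindlin complex, was at 14.1 FPKM with EV, 8.02 with Zeb1, 17.5 with Snail and 2.37 with Ovol2. KIF20A, which brings Aurora B to the central spindle, was at 23.3 FPKM with EV, 12.3 with Zeb1, 24.7 with Snail and 6.18 with Ovol2. KIF11, which pushes the spindle poles apart, was at 8.70 FPKM with EV, 5.79 with Zeb1, 11.5 with Snail and 2.01 with Ovol2. The 3 genes share one order, with Snail highest and Ovol2 lowest, and their Ovol2 log2 ratios were -2.16, -1.76 and -1.69. KIF14, a motor of late cytokinesis, had the lowest level of all members in any library, 0.663 FPKM in the Ovol2 against 4.60 in the empty vector library. The chromosome-bound motor KIF4A stood at 4.87, 2.48, 4.91 and 0.990 FPKM, and the microtubule-depolymerising KIF2C at 10.4, 5.69, 10.1 and 3.17 FPKM. KIF4A has a near-identical intronless copy, KIF4B, whose reads could be exchanged with it, but KIF4B was at no more than 0.0286 FPKM in any library. Zeb1 log2 ratios of the 6 kinesins ran from -0.87 (KIF20A) to -0.47 (KIF14).

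The cyclins and their kinase showed the smallest Ovol2 differences among the role groups of 4 or more genes. CCNB1 (cyclin B1) was at 41.1 FPKM with EV, 20.4 with Zeb1, 41.9 with Snail and 29.0 with Ovol2. CCNB2 (cyclin B2) was at 26.0 FPKM with EV, 12.2 with Zeb1, 24.1 with Snail and 14.7 with Ovol2. CDK1 was at 21.2 FPKM with EV, 11.4 with Zeb1, 25.2 with Snail and 12.2 with Ovol2. For each of these genes, and for CCNA2 (cyclin A2, 21.5, 10.8, 22.1 and 12.6 FPKM), the Zeb1 library was the lowest of the 4. None was called lower in the Ovol2 library (log2 ratios -0.78 to -0.49). In the Zeb1 library their ratios lay between -1.03 and -0.84, and CCNB2 was called lower. On the length scale CCNB2 was at -0.93 with Ovol2 and -0.72 with Zeb1, and CDK1 at -0.69 and -0.65. Zeb1 was thus no longer the lower for CCNB2 and CDK1. It stayed the lower for CCNB1 (-0.19 with Ovol2 and -0.79 with Zeb1) and CCNA2 (-0.31 and -0.84).

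Of the spindle checkpoint kinases, BUB1B (BubR1) was at 7.87 FPKM with EV, 4.40 with Zeb1, 9.22 with Snail and 1.80 with Ovol2. BUB1, its relative, was at 7.77 FPKM with EV, 4.29 with Zeb1, 7.60 with Snail and 3.81 with Ovol2. TTK, the kinase that starts the checkpoint signal, was at 7.50 FPKM with EV, 4.40 with Zeb1, 8.93 with Snail and 3.14 with Ovol2. Their Zeb1 log2 ratios were close together, from -0.73 to -0.65, while in the Ovol2 library BUB1B (-1.66) and TTK (-1.04) were called lower and BUB1 (-0.87) was not. On the length scale BUB1B was at -0.96 with Ovol2 and -0.64 with Zeb1. TTK (-0.41 with Ovol2 and -0.58 with Zeb1) and BUB1 (-0.24 and -0.66) were lower with Zeb1 on that scale.

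Of the 3 chromosomal passenger genes in the set, AURKB and BIRC5 were lowest in the Zeb1 library and CDCA8 in the Ovol2 library. AURKB, the kinase of that complex, was at 9.23 FPKM with EV, 3.62 with Zeb1, 8.11 with Snail and 4.93 with Ovol2. BIRC5 (survivin) was at 18.2 FPKM with EV, 8.20 with Zeb1, 19.3 with Snail and 13.2 with Ovol2, and its Ovol2 log2 ratio (-0.43) was the smallest of the 35 in size. CDCA8 (borealin) was at 5.05, 2.89, 5.51 and 2.44 FPKM. INCENP, the scaffold of the same complex and outside the set, was also lowest with Ovol2, at 6.03, 3.84, 6.25 and 1.87 FPKM, and is named here after its values were seen. PLK1, the Polo kinase of spindle and centrosome, was also lowest in the Zeb1 library, at 11.4 FPKM with EV, 4.75 with Zeb1, 9.34 with Snail and 5.61 with Ovol2. AURKB, PLK1 and BIRC5 were called lower in the Zeb1 library, with log2 ratios of -1.15, -1.11 and -1.06. On the length scale AURKB was lower with Ovol2 (-0.94) than with Zeb1 (-0.83). PLK1 (-0.60 with Ovol2 and -0.92 with Zeb1) and BIRC5 (-0.01 and -0.97) stayed lower with Zeb1. The centrosomal kinase AURKA and its activator TPX2 went the other way: at 11.8, 6.57, 11.9 and 4.38 FPKM and 14.9, 8.68, 16.6 and 4.21 FPKM, they were lowest in the Ovol2 library and called lower only there (-1.25 and -1.61).

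The 5 spindle microtubule factors were all called lower in the Ovol2 library, where 25.1% of all kept genes were. After centring 2 of the 5 were lower by 2-fold there, and against genes of like length 1 was. ASPM, which focuses spindle poles, was at 8.59 FPKM with EV, 7.30 with Zeb1, 13.3 with Snail and 1.11 with Ovol2, and had both the highest Snail log2 ratio of the 35 (0.58) and the Zeb1 ratio nearest to 0 (-0.21). PRC1, which bundles microtubules between the separating chromosomes, was at 29.0 FPKM with EV, 16.1 with Zeb1, 32.0 with Snail and 8.33 with Ovol2. NUSAP1, which stabilises spindle microtubules, was at 19.1 FPKM with EV, 10.0 with Zeb1, 21.3 with Snail and 7.66 with Ovol2. DLGAP5 and HMMR, further spindle assembly factors, stood at 12.4, 6.25, 12.9 and 4.54 FPKM and 7.66, 4.31, 8.59 and 3.21 FPKM. None of the 5 was called lower in the Zeb1 library, although all were below the empty vector there.

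CDC20, which activates the APC/C once the checkpoint is satisfied, had the lowest Zeb1 log2 ratio of the 35 (-1.27), at 27.2 FPKM with EV, 10.7 with Zeb1, 23.9 with Snail and 17.5 with Ovol2. UBE2C, the ubiquitin-conjugating enzyme of the APC/C, was at 17.8 FPKM with EV, 9.46 with Zeb1, 18.4 with Snail and 10.3 with Ovol2. By FPKM the Ovol2 library lay between the Zeb1 and the empty vector library for CDC20 and UBE2C. On the length scale CDC20 kept that order, at -0.54 with Ovol2 and -0.95 with Zeb1. UBE2C was the reverse on that scale, at -1.04 with Ovol2 and -0.25 with Zeb1. The cytokinesis genes were lowest in the Ovol2 library. ECT2, which activates RhoA at the cell equator, was at 23.3 FPKM with EV, 18.0 with Zeb1, 24.6 with Snail and 6.74 with Ovol2. ANLN (anillin), the scaffold of the contractile ring, was at 27.3 FPKM with EV, 18.8 with Zeb1, 35.6 with Snail and 5.20 with Ovol2. Their Ovol2 log2 ratios were -1.65 and -2.19, and their Zeb1 ratios -0.35 and -0.52.

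Zeb1 against the empty vector asked how a driver of the epithelial-to-mesenchymal transition bears on these genes. The 35 genes were lower and lay close together: the median log2 ratio was -0.74 (quartiles -0.88 and -0.56) against -0.09 over all 11922 kept genes. CDC20, AURKB, PLK1, BIRC5 and CCNB2 were called lower, which is 5 of 35 (14.3%) against 8.49% of all kept genes, and 0 were called higher against 4.52%. Centring on the median of all kept genes left a median of -0.66 and 3 genes lower by 2-fold (background 7%) and 0 higher (5.53%), and all 35 still lay below the median of all genes. The median of their percentiles among all kept genes was 15.4.

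Snail against the empty vector asked the same of the other such factor. The 35 genes differed little, with a median log2 ratio of 0.09 against 0.12 over all 11644 kept genes, from -0.26 (PLK1) to 0.58 (ASPM). None was called in either direction, where 1.5% of all kept genes were called lower and 1% higher. Centred on all kept genes the median was -0.03, so that the sign of the set's median depends on the scaling and no direction can be given. On that scale 19 of the 35 lay below the median of all genes, and 0 were past 2-fold, against 2.04% of all kept genes lower and 0.687% higher.

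Ovol2 against the empty vector addressed the factor tied to the reverse transition. The set was lower and widely spread, with a median log2 ratio of -1.25 (quartiles -1.70 and -0.84) against -0.51 over all 11812 kept genes. In this comparison 21 of 35 (60%) were called lower, against 25.1% of all kept genes, and 0 higher, against 6.82%. Centring left a median of -0.74, with 15 genes lower by 2-fold (background 8.91%), 0 higher (14.5%) and 33 below the median of all genes, CCNB1 and BIRC5 being the exceptions. The median of the percentiles was 15.5, and the range of the set, 2.58 log2 units, exceeded that in the Zeb1 (1.06) and Snail (0.84) comparisons.

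**Figure D2:**
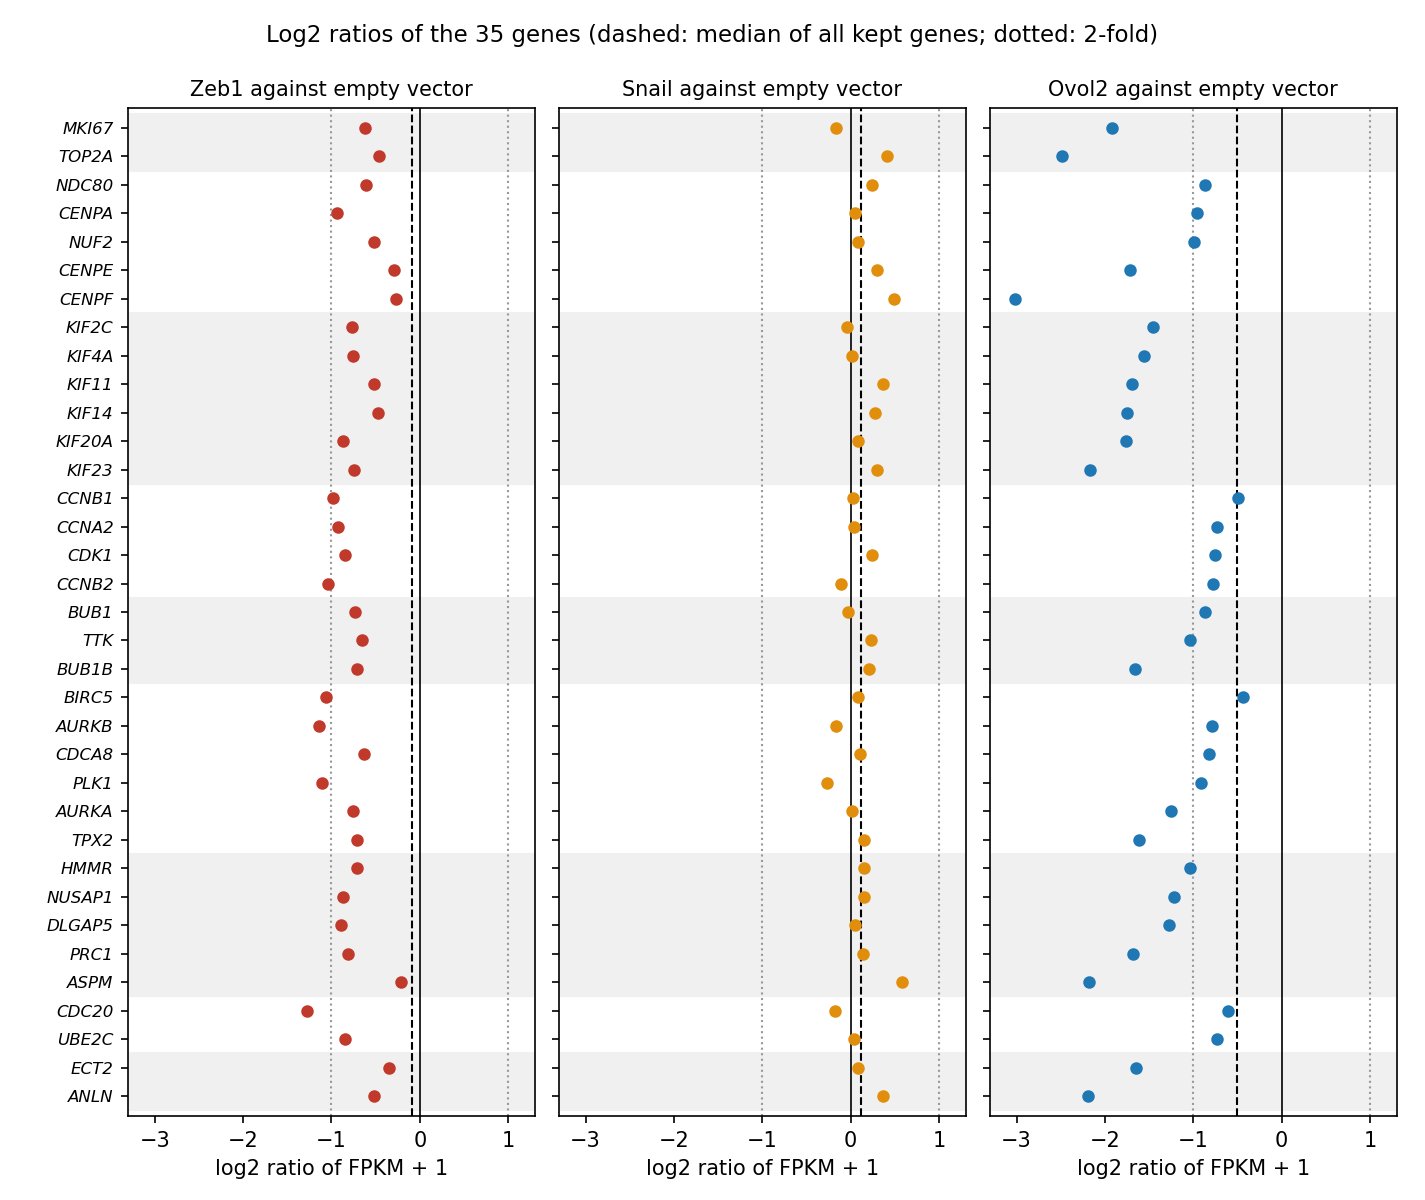
Log2 ratio of FPKM + 1 for each of the 35 genes in the Zeb1, Snail and Ovol2 libraries against the shared empty vector library, in the same gene order as the plot of levels. The dashed line is the median of all kept genes (-0.09, 0.12 and -0.51) and dotted lines mark 2-fold. Zeb1 points form a narrow band, Snail points straddle the dashed line, and Ovol2 points reach -3.02 (CENPF).

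The size of the difference followed transcript length. Lengths, the longest RefSeq-matched transcript of each gene in GENCODE release 29, were found for all 35 and ran from 0.914 kb (UBE2C) to 12.7 kb (MKI67). In the Ovol2 comparison the 5 longest (MKI67, ASPM, CENPF, CENPE and KIF14) had log2 ratios from -3.02 to -1.72 with a median of -1.92, and the 5 shortest (UBE2C, AURKB, CENPA, CCNB2 and CDC20) from -0.96 to -0.60 with a median of -0.78. In the Zeb1 comparison it was the reverse, with a median of -0.29 for the 5 longest and -1.03 for the 5 shortest. The Snail medians were 0.30 and -0.11. Across the 35 genes Spearman's rho between length and log2 ratio was -0.84 for Ovol2, 0.74 for Zeb1 and 0.54 for Snail. The same trend ran through all kept genes with a length, with rho of -0.50, 0.32 and 0.30, and the points of each comparison share their 2 libraries. Length therefore moves with the differences inside the set, and its part in them was not tested beyond the correction that follows.

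Each gene was then set against the median of kept genes of like length, in 10 bins of equal gene number. On this scale the median of the 35 was -0.91 for Ovol2, -0.65 for Zeb1 and 0.01 for Snail. All 35 lay below the median of genes of like length in the Ovol2 library and all 35 in the Zeb1 library, while 17 did in the Snail library. In the Ovol2 library 9 of 35 were lower by 2-fold on this scale, against 8.21% of all genes with a length. Of these, 7 were among the 21 called lower before, and CENPA (-1.11) and UBE2C (-1.04), both short, were not. The lowest were CENPF (-1.93), TOP2A (-1.54), KIF23 (-1.46) and ANLN (-1.35). BIRC5 (-0.01), CCNB1 (-0.19), BUB1 (-0.24) and CCNA2 (-0.31) lay closest to genes of like length. In the Zeb1 library 0 of 35 were past 2-fold, against 5.85%, and the set narrowed to between -0.97 (BIRC5) and -0.25 (UBE2C). The medians of the 5 longest and 5 shortest genes were then -0.84 and -0.94 for Ovol2 and -0.52 and -0.72 for Zeb1, and rho over the 35 was -0.22 and 0.14.

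**Figure D3:**
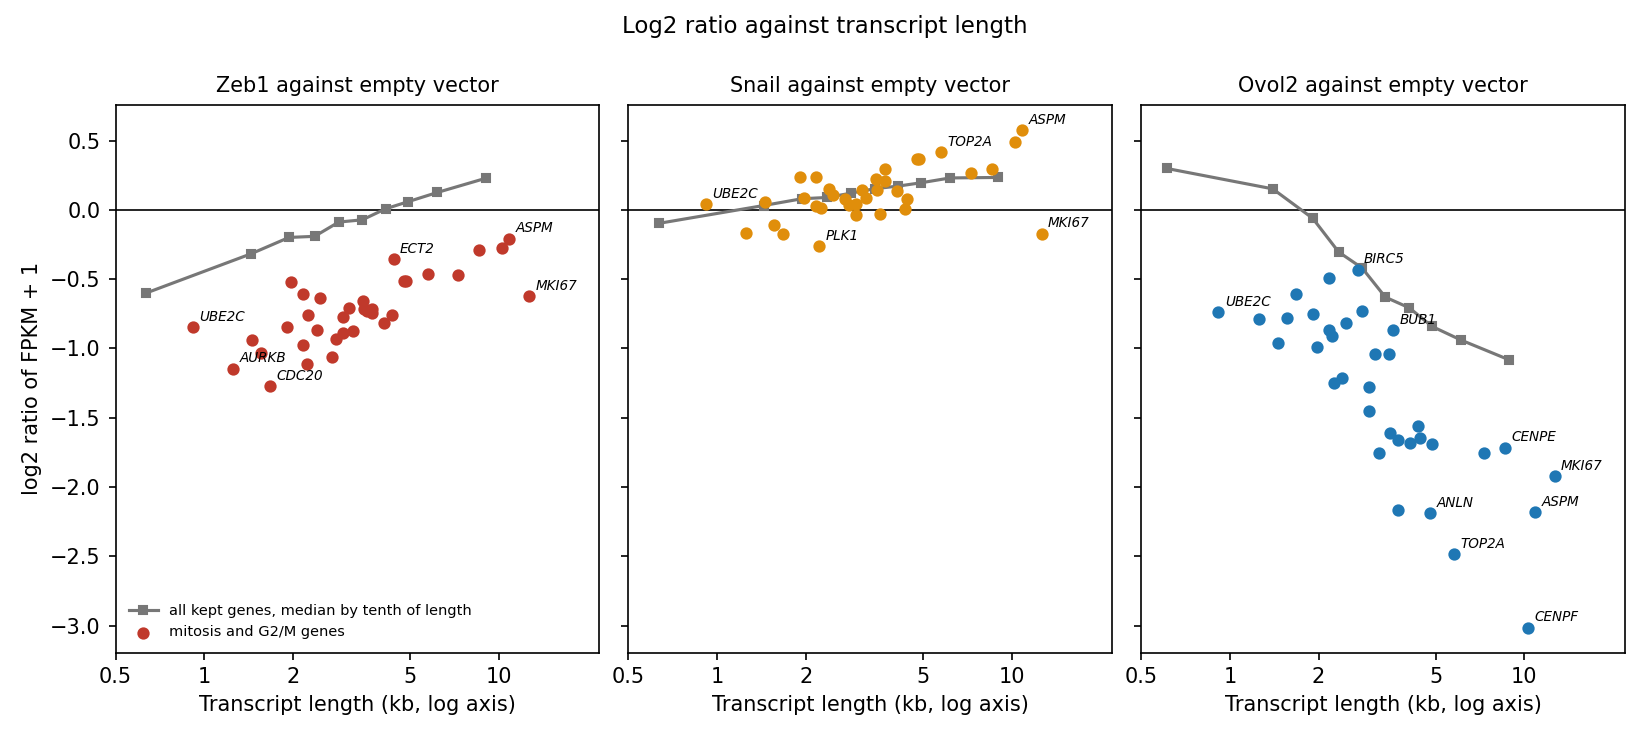
Log2 ratio of FPKM + 1 against the empty vector plotted over transcript length (kb, log axis) for the 35 genes (coloured points), with the median of all kept genes in each of 10 length bins (grey squares and line). The grey line falls with length in the Ovol2 panel and climbs in the Zeb1 and Snail panels, and the 35 genes lie below it in the Ovol2 and Zeb1 panels and around it in the Snail panel.

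Direct comparisons of the factor libraries do not use the empty vector library. All 35 genes were lower with Zeb1 than with Snail (66.9% of all kept genes were), with a median log2 ratio of -0.88 (-0.69 centred) against -0.19 over 11732 kept genes. There 6 of 35 (17.1%) were called lower, against 6.43% of all, and 0 higher, against 2.34%. None was lower by 2-fold after centring (3.61% of all) or against genes of like length (3.13%). The lowest ratios were those of BIRC5 (-1.14), CDC20 (-1.10) and CDK1 (-1.08). All 35 were also lower with Ovol2 than with Snail (72.4% of all kept genes were, and 32 of the 35 lay below the median of all genes), with a median of -1.32 (-0.70 centred) against -0.62 over 11843 kept genes. There 24 of 35 (68.6%) were called lower, against 32.4% of all, and 0 higher, against 8.83%. After centring 14 were lower by 2-fold (12.2% of all), and against genes of like length 10 were (10.4%).

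The Ovol2 and Zeb1 libraries, set against each other, did not order all of these genes the same way. The median log2 ratio of Ovol2 over Zeb1 was -0.46, close to the -0.43 of all 11991 kept genes, and -0.04 after centring. Of the 35, 10 (28.6%) were called lower, a share near the background of 28.8%, and 0 higher, against 14.4%. CDC20 (0.67), BIRC5 (0.63), CCNB1 (0.49) and AURKB (0.36) led 9 genes that were higher in the Ovol2 library, and CENPF (-2.74), TOP2A (-2.02), ASPM (-1.97) and ANLN (-1.67) the 26 that were lower (63.9% of all kept genes were). After centring, 18 of the 35 lay below the median of all genes, and 26 of the 35 lay below genes of like length. Length tracked this contrast most closely (rho -0.86 over the 35), and against genes of like length the median was -0.17 with 1 gene, CENPF, lower by 2-fold, against 13.8% of all genes with a length.

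Other genes of the same machinery were listed by function, 134 of 135 of them present in the tables, and all 134 were kept. In the Zeb1 library 15 of 134 (11.2%) were lower, against 8.49% of all kept genes, and 1 higher, against 4.52%. The median log2 ratio was -0.48 (-0.39 centred). After centring 12 were lower, where 7% of all kept genes were. Against genes of like length 6 of the 130 with a length were lower, where 5.85% of all were. PTTG1 (securin, 55.7 to 16.7 FPKM, -1.68), CENPM (-1.48) and CENPH (-1.26) of the inner kinetochore, and the CDK1-inhibiting kinase PKMYT1 (-1.23) were among the lowest. In the Snail library 0 of 134 were lower and 1 was higher (median 0.13), where 1.5% of all kept genes were lower and 1% higher. In the Ovol2 library 57 of 134 (42.5%) were lower, against 25.1% of all kept genes, and 0 higher, against 6.82% (median -0.82). After centring 20 were lower and 3 higher (median -0.31), where 8.91% of all kept genes were lower and 14.5% higher. Against genes of like length 12 were lower and 0 higher (median -0.42), where 8.21% of all were lower.

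By list, the Ovol2 ratios differed in size. Of all kept genes, 25.1% were called lower in this comparison. Of the condensin, cohesin and separase genes, which fold chromosomes and hold sisters together, 13 of 16 were lower (median -1.45), led by SMC3 (-1.96), SMC2 (-1.80) and SMC1A (-1.77). Other kinesins and spindle genes had 18 of 26 lower (median -1.21), led by the microtubule polymerase CKAP5 (-2.13), NUMA1 (-2.10) and CKAP2 (-1.83). After centring 7 of 16 and 4 of 26 were lower by 2-fold, where 8.91% of all kept genes were. Against genes of like length 2 of 16 and 4 of 26 were lower by 2-fold (8.21% of all), with medians of -0.62 and -0.56. Of the regulators of entry into mitosis, 8 of 18 were lower (median -0.92, and -0.65 against genes of like length), with CDC25B, the phosphatase that first activates CDK1, at 0.560 FPKM with Ovol2, against 6.89 with EV, 11.9 with Zeb1 and 8.11 with Snail. Other kinetochore genes (9 of 36 lower, 25%, median -0.61) and APC/C subunits (3 of 15, 20%, median -0.41) had shares at or below the background. Their medians were close to that of all kept genes.

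The transcription factors of the G2/M programme were measured beside their targets. FOXM1 was at 6.48 FPKM with EV, 3.15 with Zeb1, 6.48 with Snail and 1.10 with Ovol2, with log2 ratios of -0.85 for Zeb1 and -1.84 for Ovol2. MYBL2 was at 7.06 FPKM with EV, 2.38 with Zeb1, 5.55 with Snail and 3.65 with Ovol2, with ratios of -1.26 and -0.80. FOXM1 was thus lowest in the Ovol2 library and MYBL2 lowest in the Zeb1 library. NFYB, a subunit of the CCAAT-binding factor NF-Y, took another course, at 15.5 FPKM with EV, 52.6 with Zeb1, 35.3 with Snail and 2.79 with Ovol2. It was the 1 gene called higher in the Zeb1 library and the 1 called higher in the Snail library among the 134, and in the Ovol2 library it was called lower (-2.12). Against genes of like length its ratios were 1.77, 0.98 and -1.49. FOXM1, MYBL2 and NFYB do not stand for their whole list of 15 G2/M transcription regulators. With Zeb1 1 of 15 was lower (6.67%, against 8.49% of all kept genes) and 1 higher, with a median of -0.22. With Ovol2 3 of 15 were lower (20%, against 25.1%), with a median of -0.62 (-0.11 centred).

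Genes of the earlier cell cycle were set beside the mitotic set. Of 43 DNA replication and G1/S genes, 14 were lower in the Zeb1 library (median -0.90, centred -0.81) and 11 in the Ovol2 library (median -0.70, centred -0.20), and 0 were higher in either. With Zeb1 this was 32.6%, against 8.49% of all kept genes, but with Ovol2 it was 25.6%, near the background of 25.1%. After centring 9 were lower with Zeb1 (7% of all kept genes were), and 0 were lower (8.91%) and 1 higher (14.5%) with Ovol2. Against genes of like length these medians became -0.79 and -0.13, where the 35 mitotic genes had -0.65 and -0.91. TK1 (-1.69), MCM2 (-1.64) and CDC45 (-1.61) led the Zeb1 library, and the polymerase subunits POLE (-1.30) and POLA1 (-1.29) the Ovol2 library. Set directly against each other, the Ovol2 library was above the Zeb1 library for these genes, with a median log2 ratio of 0.28 (0.70 centred, 0.78 against genes of like length), 7 of 43 called higher (14.4% of all kept genes were, a similar share) and 0 lower (28.8%), while the mitotic genes had -0.46 (-0.04 and -0.17). Cyclin D1 (CCND1), which drives exit from G1, was at 21.2 FPKM with EV, 6.17 with Zeb1, 22.3 with Snail and 19.9 with Ovol2. Other genes of its list differed. CDK6 (-1.47) and CDK2 (-1.05) were called lower with Ovol2, 2 of 5 kept G1 cyclins and CDKs (40%, against 25.1%), and 0 after centring. With Zeb1 CDK6 was above the empty vector (0.31) and CDK2 below it (-0.50), and CCND1 alone of the 5 was called lower (20%, against 8.49%). MYC, a growth-promoting transcription factor, was at 211 FPKM with EV, 65.3 with Zeb1, 223 with Snail and 101 with Ovol2.

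Of the CDK inhibitors, CDKN1A (p21), which blocks CDKs downstream of p53 and in differentiation, was at 77.1 FPKM with EV, 87.6 with Zeb1, 74.7 with Snail and 189.5 with Ovol2, and was called higher in the Ovol2 library alone (1.29). CDKN1C (p57) was at 2.73 FPKM with EV, 6.36 with Zeb1, 8.22 with Snail and 7.31 with Ovol2. It stood above the empty vector in each factor library, with log2 ratios of 0.98, 1.31 and 1.16, 3 ratios that share the empty vector value. Of the 5 inhibitors kept, 0 were called lower in any library, against 8.49% of all kept genes with Zeb1, 1.5% with Snail and 25.1% with Ovol2. CDKN1B stood at 16.7 FPKM with EV, 21.1 with Zeb1, 20.5 with Snail and 10.7 with Ovol2. It was the 1 inhibitor below the empty vector with Ovol2 (-0.60, and -0.09 centred).

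**Figure D4:**
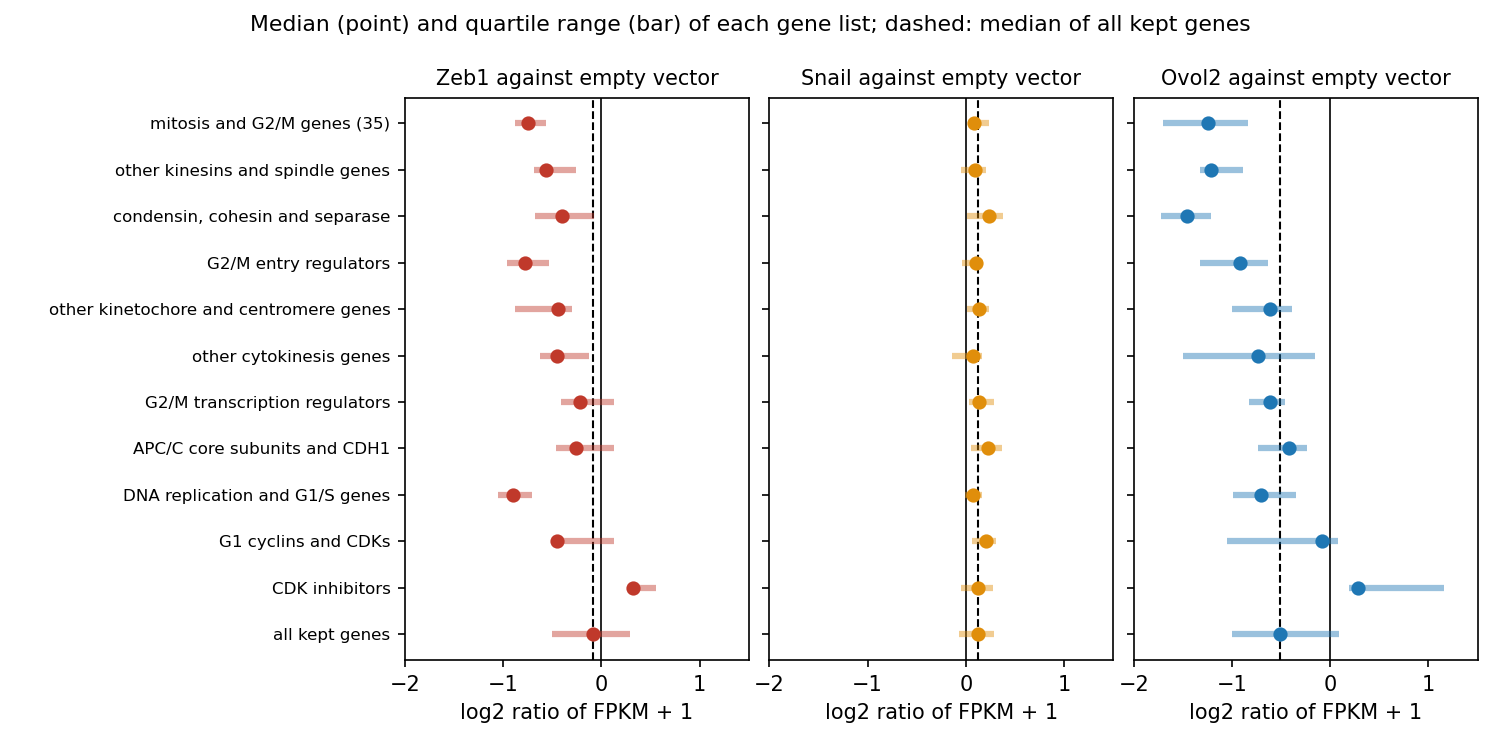
Median (points) and quartile range (bars) of the log2 ratio of FPKM + 1 for the 35 mitosis and G2/M genes, the lists of related genes and all kept genes, each factor library against the empty vector. The dashed line is the median of all kept genes. Medians of the 35 genes and the condensin, spindle and replication lists lie left of it in the Zeb1 and Ovol2 panels. The replication bar crosses it in the Ovol2 panel (quartiles -0.99 and -0.35, line at -0.51). The median of the CDK inhibitors lies right of it in the Zeb1 and Ovol2 panels.

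The authors' deposited table for each factor holds a p-value per row, from a model with 1 value per side. By the authors' deposited table, all 35 genes had an adjusted p-value below 0.05 with Zeb1 (77.9% of all rows did), all 35 with Ovol2 (86.3%) and 30 of 35 with Snail (81%). KIF4A, CCNA2, CCNB1, AURKA and UBE2C were the 5 above it with Snail. Those p-values measure no spread between cultures. Exons of 10 of the 35 genes (ANLN, CCNA2, HMMR, KIF20A, KIF23, KIF2C, KIF4A, NUF2, PLK1 and PRC1) overlap exons of another gene on the opposite strand in GENCODE, the library kit does not mark strand, and reads from such partners cannot be told apart. The most abundant partner, with 14.1 FPKM in the empty vector library, overlaps KIF20A. Exons of 4 genes (BUB1B, CENPA, NUSAP1 and PRC1) overlap another annotated gene on the same strand.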

How the data were processed

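RNA was sequenced from 4 MCF10A libraries, 1 per group, after a TruSeq RNA v2 preparation per the labels' protocols. The authors deposited 3 tables of 25360 rows, each pairing the empty vector with 1 factor library. TopHat, Cufflinks, Cuffdiff and the hg19 build are named in the submitters' processing notes, and the deposited values were therefore taken as FPKM. No header names the unit. Versions, annotation and scaling between libraries are not given in the sources used here. P-value columns hold the authors' own comparison, per the file headers, and were only described.

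The 43 rows repeating a symbol were summed. Log2 ratios used a pseudocount of 1 FPKM, genes below 1 FPKM on both sides of a comparison were dropped, and 2-fold was the call rule. The text names all 35 members and, by list, at most 3 other genes per comparison with the largest ratios. FOXM1, MYBL2, MYC, CDKN1A and the delivered factors were named as well. Length correction subtracted the median of genes in the same of 10 length bins, with lengths found for 22158 of 25317 symbols. The ratio and length steps were tested on simulated data. Alternatives were another pseudocount and filter, centring, upper quartile scaling and length. Members and lists were chosen with earlier results of these data known. Estimated fragments per gene cover counting error only. Python 3.11.15, pandas 2.3.3 and NumPy 2.4.6 were used.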

Additional observations from a re-analysis of the deposited data

How the results depend on the processing

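Of 72 recomputed values, 51 stayed within 0.1 log2 units or 1.5 times of the reported one and 2 changed sign, both the Snail median (0.09), which was -0.034 after centring and -0.058 with upper quartile scaling. With no filter on low values nothing could move, because all 35 genes were kept in every comparison. The 51 also include counts that were 0 in every setting, namely genes higher with Zeb1, Snail or Ovol2 and genes lower with Snail. In the Zeb1 comparison the count of genes lower by 2-fold (5) became 3 after centring, 3 with upper quartile scaling and 0 after length correction. The Ovol2 median (-1.25) became -1.41 with a pseudocount of 0.1 FPKM, -0.74 after centring, -1.14 with upper quartile scaling and -0.91 after length correction, and its count of 21 lower genes became 9 after length correction. The Zeb1 over Snail median (-0.88) became -0.69 after centring, -0.62 with upper quartile scaling and -0.69 after length correction. The Ovol2 over Zeb1 median (-0.46) became -0.57 with a pseudocount of 0.1 FPKM, -0.59 with a filter of 5 FPKM, -0.038 after centring and -0.17 after length correction. The Ovol2 over Snail median (-1.32) became -1.48 with a pseudocount of 0.1 FPKM, -0.70 after centring, -1.06 with upper quartile scaling and -0.85 after length correction. Centring and scaling change the values by construction, and the cause of the length trend was not tested. No paired analysis was possible because each group held 1 library, and for the same reason no library could be left out. The Ovol2 library, with the fewest fragments, limits the precision of its lowest genes.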

Other observations

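Ratios of 2 genes within a library do not depend on how libraries were scaled, and 4 of the 5 pairs below are of like transcript length. The pairs were chosen after their values were seen and are descriptions of 4 libraries. KIF23 over BUB1 (3.72 and 3.58 kb) was 1.82, 1.87, 2.30 and 0.622 with EV, Zeb1, Snail and Ovol2, so the central spindle motor was above the checkpoint kinase in the first 3 and below it in the Ovol2 library. Against BUB1B, the other BUB1-type kinase (3.72 kb), KIF23 stayed above in all 4, at 1.79, 1.82, 1.90 and 1.32. CENPF over ASPM (10.3 and 10.9 kb) was 1.80, 1.73, 1.66 and 0.933. NDC80 over its partner NUF2 (2.17 and 1.97 kb) stayed between 1.16 and 1.41 in the 4 libraries. CENPF over CCNB1, a pair of unlike length (10.3 and 2.17 kb), was 0.377, 0.620, 0.529 and 0.0358.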
